A study of Mus musculus with 4 samples.

Results

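Neutrophils store antimicrobial proteins and proteases in granules that form in turn as the cell matures. The 10 genes described here encode such proteins, out of 48526 gene identifiers in the deposited table. They were taken by name, by granule class: azurophil (Mpo, Elane), specific (Ngp, Ltf, Camp, Lcn2), gelatinase (Mmp8, Mmp9) and other proteins that neutrophils secrete (Retnlg, Wfdc21). All 10 had a single row and passed the filter of a mean value of at least 4. The RNA came from lamina propria mononuclear cells, the leukocyte-rich fraction of the connective tissue beneath the gut epithelium, of mice with colitis after transfer of CD4 T cells. In the DKO group (2 samples, mild colitis per the labels) the transferred cells lacked both Hobit and Blimp-1, related transcriptional repressors of tissue-resident lymphocytes. In the WT group (2 samples, pronounced colitis) they were wild type. The sources used here do not give the host strain, its age or how the knockouts were made, and the group names say nothing of the host's own cells. The values are regularized log2 expression (rlog), the authors' log2 scale on which differences are pulled towards 0, more so where reads are few.

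As background, azurophil granules form first, in promyelocytes, and hold myeloperoxidase and serine proteases. Specific granules form next, in myelocytes and metamyelocytes, with lactoferrin, cathelicidin and lipocalin 2, and gelatinase granules follow in band cells. Granule transcripts are largely made in the marrow, at the stage at which each granule forms, while the genes of the gelatinase class are transcribed later. Factors of the C/EBP family and the ETS factor PU.1 drive this programme.

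Camp, Ngp and Ltf, of the specific granules, had the largest falls among all genes tested, and their promoter windows are shown with that of Mpo, the azurophil gene with the larger fall. The RefSeq windows on GRCm38.p6 run from 250 bases before to 50 bases after the annotated start, and 8 of the 10 genes have one in the table used (Mmp9 and Wfdc21 were not matched). Capitals mark the letters TTGCNNAA, a C/EBP-type motif, and GAGGAA, a PU.1-type motif, on either strand. The windows lie at chr9:110419558-110419857 (plus strand) for Ngp, chr9:111019042-111019341 (plus) for Ltf, chr9:109849407-109849706 (minus) for Camp and chr11:87793534-87793833 (plus) for Mpo.
Ngp: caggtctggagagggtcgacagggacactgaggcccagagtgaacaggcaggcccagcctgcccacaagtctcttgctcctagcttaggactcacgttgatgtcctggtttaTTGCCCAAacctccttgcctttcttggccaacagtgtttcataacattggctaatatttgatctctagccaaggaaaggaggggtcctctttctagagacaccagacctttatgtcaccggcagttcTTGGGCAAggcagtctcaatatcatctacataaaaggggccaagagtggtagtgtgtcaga
Ltf: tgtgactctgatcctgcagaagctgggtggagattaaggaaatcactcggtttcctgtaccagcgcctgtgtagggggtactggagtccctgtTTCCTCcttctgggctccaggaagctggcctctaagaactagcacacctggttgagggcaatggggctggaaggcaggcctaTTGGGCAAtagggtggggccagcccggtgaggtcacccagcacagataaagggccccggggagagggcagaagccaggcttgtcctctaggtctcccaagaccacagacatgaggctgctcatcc
Camp: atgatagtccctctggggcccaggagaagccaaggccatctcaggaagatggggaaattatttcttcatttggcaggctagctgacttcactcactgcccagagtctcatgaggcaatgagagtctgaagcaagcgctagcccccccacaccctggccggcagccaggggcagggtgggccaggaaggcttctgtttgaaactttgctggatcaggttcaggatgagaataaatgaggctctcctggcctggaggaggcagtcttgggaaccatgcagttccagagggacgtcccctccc
Mpo: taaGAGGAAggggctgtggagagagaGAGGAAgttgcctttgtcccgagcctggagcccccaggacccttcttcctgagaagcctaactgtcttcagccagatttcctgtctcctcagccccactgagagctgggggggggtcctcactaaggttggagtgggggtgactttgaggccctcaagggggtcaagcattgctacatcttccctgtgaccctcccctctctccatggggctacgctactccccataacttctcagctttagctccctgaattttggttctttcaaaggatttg
Counted from the annotated start, the C/EBP-type letters began at -138 and -11 in Ngp and at -75 in Ltf, while the Camp window held neither motif and the Mpo window held GAGGAA at -247 and -224. The Ltf window also had GAGGAA on the minus strand. No match of one of these motifs overlapped a match of the other. Of the 8 windows, 5 had TTGCNNAA (Ngp, Ltf, Lcn2, Mmp8 and Retnlg), against 10.8% of the 32851 windows of the same length in the table. GAGGAA was in 5 of 8 (Mpo, Elane, Ltf, Lcn2 and Mmp8), against 28.3% of all windows. TATAAA was in 1 of 8 (Mmp8), against 13.6%. These are matches of letters on both strands and not measured binding sites. The RefSeq starts can differ from the GENCODE gene positions given below. The Lcn2 window (32387690 to 32387989) lies within the GENCODE gene (32384633 to 32388252). The GENCODE start of Ngp (110419747) lies inside its window, before the match at -11.

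The samples hold the cells that the label names, with other cells beside them. T cell genes (Cd3g at 11.87 to 12.15 rlog) and macrophage genes (Csf1r at 12.50 to 13.12) were high, whereas the B cell genes Cd79a and Ms4a1 were below 0 in every sample. Epithelial transcripts were present too, led by Krt8 at 12.29 to 12.47. The median rlog over the 13528 genes tested was 8.33 to 8.35 in the 4 samples, and the read depth is unknown. In bulk RNA, fewer neutrophils and less granule RNA per neutrophil cannot be told apart.

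All 10 granule genes were lower in the DKO group, with a median difference of -1.52 on the log2 scale and a range of -2.26 (Ngp) to -0.996 (Mmp9). Over all 13528 genes the median difference was -0.022. Each of the 10 passed in limma with Benjamini-Hochberg adjustment over all genes (adjusted p of 1.03e-05 to 0.0013), where 4.85% of all genes were called lower and 9.92% higher. In each of the 10 both DKO samples lay below both WT samples, which held for 30.3% of all genes tested. Ngp, Ltf and Camp were the 3 genes with the lowest difference of all those tested, and the 10 genes lay among the lowest 31. The genes were chosen with earlier results known, so these counts describe them and do not test the list. The count of all genes called lower was 656. As the groups did not overlap in these 10 genes, leaving out any 1 sample could not change a direction. With all 4 samples, a robust variance estimate left 5 of the 10 called, and a fit with no filter on low values left 2.

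**Figure D1:**
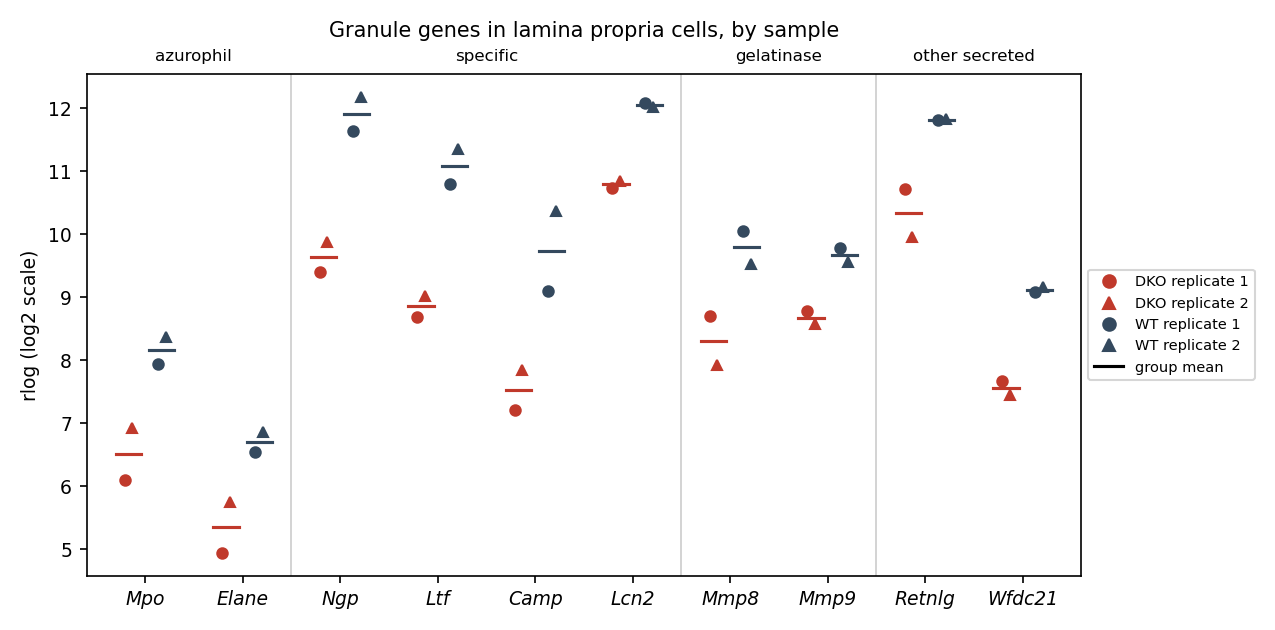
Expression of the 10 granule genes on the rlog (log2) scale in each sample, with DKO in red left of WT in blue, circles for replicate 1, triangles for replicate 2 and bars for group means of 2 samples. Both DKO samples lie below both WT samples for every gene, from Elane (4.95 and 5.75 in DKO, 6.54 and 6.86 in WT) to Lcn2 (10.73 and 10.85 in DKO, 12.07 and 12.01 in WT).

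The azurophil genes had the lowest rlog levels of the 10, also per length. Mpo (ENSMUSG00000009350, GRCm38 chromosome 11, 87793581 to 87804413, 15 exon blocks), which encodes myeloperoxidase, the enzyme that makes hypochlorous acid, had rlog values of 6.11 and 6.92 in the DKO samples and 7.95 and 8.36 in the WT samples. The groups were a full unit apart at their nearest values. Its mean was 6.52 ± 0.58 in DKO and 8.16 ± 0.29 in WT (SD, n = 2 each), a difference of -1.64 (SE 0.22, adjusted p = 0.000456 in limma). Elane, the neutrophil elastase gene (chromosome 10, 79886247 to 79888215), stood at 4.95 and 5.75 in the DKO samples and at 6.54 and 6.86 in the WT samples. Here the spread between the DKO samples was as large as the gap between the groups. The difference was -1.35 (SE 0.22, adjusted p = 0.0013).

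The specific granule genes held the largest falls and, in Lcn2, one of the smallest. Ngp (chromosome 9, 110419747 to 110423012), which encodes a cathelicidin-related protein of mouse granules, had 9.40 and 9.88 rlog in the DKO samples and 11.63 and 12.17 in the WT samples. Its mean of 9.64 ± 0.34 in DKO against 11.90 ± 0.38 in WT (SD, n = 2 each) gave a difference of -2.26 (SE 0.17, adjusted p = 2.02e-05 in limma), so that WT was 4.79-fold higher. The gap between groups was about as wide in Ltf (chromosome 9, 111019271 to 111042767), which encodes the iron-binding protein lactoferrin. Ltf was at 8.69 and 9.02 in the DKO samples and at 10.79 and 11.36 in the WT samples, a difference of -2.22 (SE 0.16, adjusted p = 1.45e-05).

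Camp (chromosome 9, 109847379 to 109849617) encodes the cathelicidin, precursor of an antimicrobial peptide. It had 7.22 and 7.85 rlog in the DKO samples and 9.10 and 10.37 in the WT samples, and the WT samples were farther apart than in any other of the 10 genes. The difference was -2.20 (SE 0.32, adjusted p = 0.000682 in limma), and it was -1.57 without WT replicate 2 and -2.84 without WT replicate 1. Lcn2 (chromosome 2, 32384633 to 32388252) encodes lipocalin 2, which binds bacterial siderophores and is also made by epithelium. It had 10.73 and 10.85 in the DKO samples and 12.07 and 12.01 in the WT samples. The 2 samples of each group lay close together, and the difference was -1.25 (SE 0.082, adjusted p = 1.03e-05). Of 10 epithelial markers 1 was called, Car1 (0.46 higher in DKO), with a list median of 0.0013. Their summed level (log2 of the sum of 2 to the power of rlog) was 14.27 to 14.36 in DKO and 14.24 to 14.37 in WT. The part of epithelium in the fall of Lcn2 was not tested.

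Of the gelatinase genes, Mmp8 fell more than Mmp9 did. Mmp8 (chromosome 9, 7558456 to 7568485), a collagenase, had 8.70 and 7.92 rlog in the DKO samples and 10.05 and 9.53 in the WT samples. The first replicate was the higher one in both groups, and the groups did not overlap. The difference was -1.48 (SE 0.22, adjusted p = 0.000766 in limma). Mmp9 (chromosome 2, 164940780 to 164955850), the gelatinase that names the class and that macrophages can make as well, was at 8.78 and 8.57 in the DKO samples and at 9.78 and 9.57 in the WT samples. Its spread within each group was small beside the gap between them, with a difference of -0.996 (SE 0.10, adjusted p = 9.07e-05), the smallest of the 10. The difference between the falls of Mmp8 and Mmp9 was not tested.

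The remaining secreted proteins fell by like amounts. Retnlg (chromosome 16, 48872621 to 48874496), a resistin-like protein of myeloid cells, had 10.72 and 9.95 rlog in the DKO samples and 11.81 and 11.83 in the WT samples. The WT samples were nearly equal, whereas the DKO samples were 0.77 apart. The difference was -1.48 (SE 0.18, adjusted p = 0.000235 in limma). Wfdc21 (chromosome 11, 83746940 to 83752642), a member of the whey acidic protein family, had 7.67 and 7.45 in the DKO samples and 9.08 and 9.16 in the WT samples. The difference was -1.56 (SE 0.10, adjusted p = 1.03e-05), with a small spread in each group. A robust variance estimate left 5 of the 10 called (Ngp, Ltf, Lcn2, Mmp9 and Wfdc21), and a fit with no filter on low values left 2 (Lcn2 and Wfdc21).

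Levels were compared between genes per length, as rlog minus log2 of the exonic length in kilobases over all annotated transcripts. Retnlg was the highest on that scale, at 11.09 in DKO and 12.57 in WT (means of 2 samples each). In WT the order went on with Ngp (11.61), Lcn2 (10.65), Wfdc21 (10.33), Camp (10.14), Ltf (9.29), Mmp8 (8.51), Mmp9 (7.85), Elane (6.73) and Mpo (6.38). In the DKO group Lcn2 (9.40) stood level with Ngp (9.35), the samples of which overlapped, and Wfdc21 (8.77), Camp (7.93), Ltf (7.07), Mmp8 (7.03), Mmp9 (6.85), Elane (5.37) and Mpo (4.74) followed. Some neighbours in the order had overlapping samples. These were Camp with Wfdc21, Lcn2 and Ltf in WT, Ltf, Mmp8 and Mmp9 in DKO, and Elane with Mpo in both groups.

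Among the 10 genes the 2 samples of a group differed by granule class, a pattern seen after the values were known and that many other genes of these classes did not show. In the DKO group all 6 azurophil and specific genes were higher in replicate 2 than in replicate 1, by 0.12 (Lcn2) to 0.82 (Mpo), and all 4 gelatinase and other secreted genes were lower there, by -0.21 (Mmp9) to -0.77 (Mmp8). In the WT group Mpo, Elane, Ngp, Ltf and Camp were higher in replicate 2, by 0.32 to 1.27, while Lcn2, Mmp8 and Mmp9 were lower (-0.063, -0.53 and -0.22), and Retnlg and Wfdc21 moved by 0.016 and 0.081. Over all genes tested, 95% of the differences between the 2 samples were under 0.36 in size in DKO and under 0.30 in WT. All 4 other gelatinase genes were higher in DKO replicate 2, opposite to Mmp8 and Mmp9, by 0.094 (Slc11a1) to 0.33 (Fcnb), and in WT replicate 2 Fcnb was higher by 0.75 and the other 3 were lower. Of 8 other specific granule genes 5 were higher in DKO replicate 2, while Cd177 (-0.39), Chil3 (-0.22) and Olfm4 (-0.13) were lower, and 4 of the 8 were higher in WT replicate 2. Of 5 other azurophil genes tested, Prtn3 (0.32), Ctsg (0.30) and Cd63 (0.15) were higher in DKO replicate 2 and Ctsc (-0.049) and Srgn (-0.052) lower, and all 5 were higher in WT replicate 2. Of the 11 neutrophil genes outside the granule class lists, 7 were lower in DKO replicate 2, led by S100a8 (-0.64) and S100a9 (-0.63), and 5 in WT replicate 2. Replicate numbers do not pair the samples, and no test was made of this pattern.

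**Figure D2:**
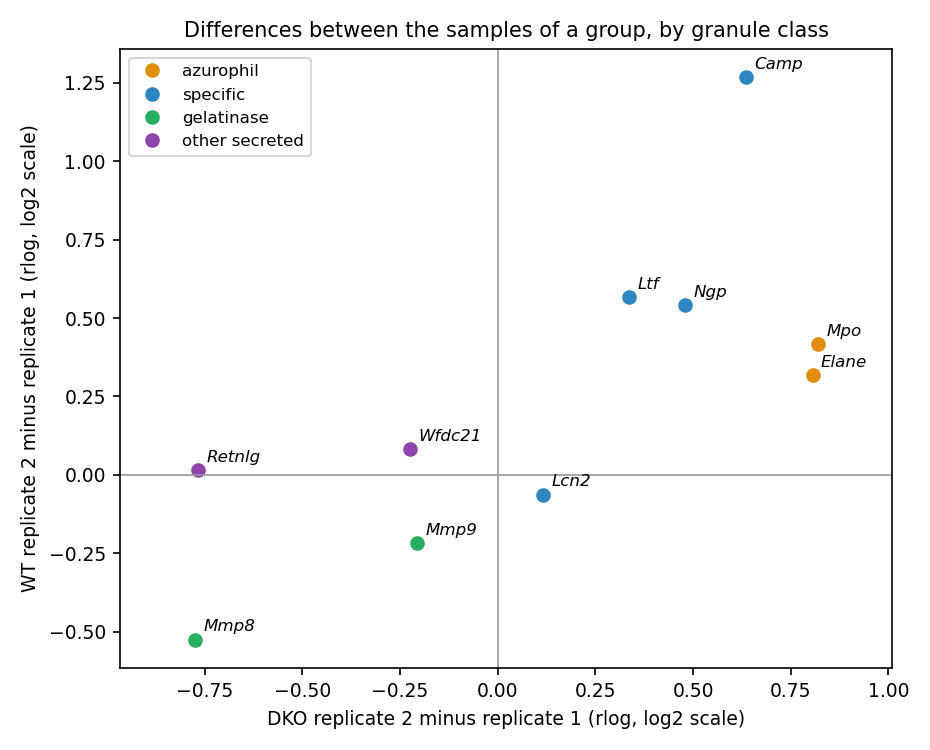
Difference between the 2 samples of each group for the 10 granule genes on the rlog (log2) scale, replicate 2 minus replicate 1, in DKO on the x axis and in WT on the y axis, coloured by granule class. Among these 10, azurophil and specific genes lie right of 0 in DKO (0.12 to 0.82) and gelatinase and other secreted genes left of it (-0.77 to -0.21).

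Most other granule genes fell as well, with a smaller median. Of 18 further genes of the 3 granule classes 17 were tested, and 13 fell in limma, with a median of -0.58 over those tested (all genes tested -0.022). Their differences ran from -1.50 (Chil3) to 0.44 (Ptx3), which overlaps the range of the 10 genes. The part of other cell types in these levels, and so in the smaller median, was not tested. Among azurophil genes the proteases Prtn3 (-1.39, SE 0.17, adjusted p = 0.000261) and Ctsg (-1.08, SE 0.13, adjusted p = 0.000261) fell, as did Ctsc, which activates them (-0.41, adjusted p = 0.0105). Ctsc did not pass without WT replicate 1 or 2 (adjusted p = 0.0713 and 0.111) or with quantile normalization (-0.26, adjusted p = 0.0768). The granule proteoglycan gene Srgn was at -0.38 (adjusted p = 0.0832), and was called lower without the variance trend (adjusted p = 0.0266) and under the robust variance estimate (adjusted p = 0.0206). The difference was -0.0032 (adjusted p = 0.989) for the membrane protein gene Cd63. Bpi was below the filter, at -1.97 in all 4 samples. Prtn3 ends 3.07 kb before Elane on chromosome 10 and had 6.21 and 6.53 rlog in the DKO samples against 7.48 and 8.04 in the WT samples.

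Of 8 other specific granule genes 7 fell. Chil3, a chitinase-like protein that monocytes also express, fell by 1.5 (SE 0.13, adjusted p = 2.92e-05 in limma), Cd177, a surface protein of neutrophils, by 0.97 and Hp, which encodes haptoglobin, by 0.90. The integrin gene Itgam fell by 0.84, Olfm4 by 0.60, the lysozyme gene Lyz2 by 0.58 and Cybb, the oxidase subunit, by 0.39. Cybb did not pass without WT replicate 1, WT replicate 2 or DKO replicate 1 (adjusted p = 0.146, 0.0912 and 0.0568) or with quantile normalization (-0.25), nor did Lyz2 without WT replicate 2 (adjusted p = 0.0779) or Cd177 under the robust variance estimate (adjusted p = 0.135). Ptx3, a soluble pattern recognition protein that stromal cells also make, had 7.25 and 8.40 rlog in the DKO samples and 7.01 and 7.76 in the WT samples, and was at 0.44 (adjusted p = 0.419). It was called higher without DKO replicate 1 (1.01, adjusted p = 8.67e-05). Of 4 other gelatinase granule genes 3 fell, Fcnb, a ficolin (-0.85), Slc11a1, a metal transporter (-0.53), and Adam8, a metalloproteinase (-0.43), while Mmp25 was at -0.15 (adjusted p = 0.47). Fcnb was at -0.47 (adjusted p = 0.103) without WT replicate 2 and Adam8 at -0.27 (adjusted p = 0.22) without WT replicate 1. Nor did Fcnb pass under the robust variance estimate (adjusted p = 0.159) or Adam8 with quantile normalization (-0.33, adjusted p = 0.0566). Chil3 has a close paralog with which it may share reads.

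**Figure D3:**
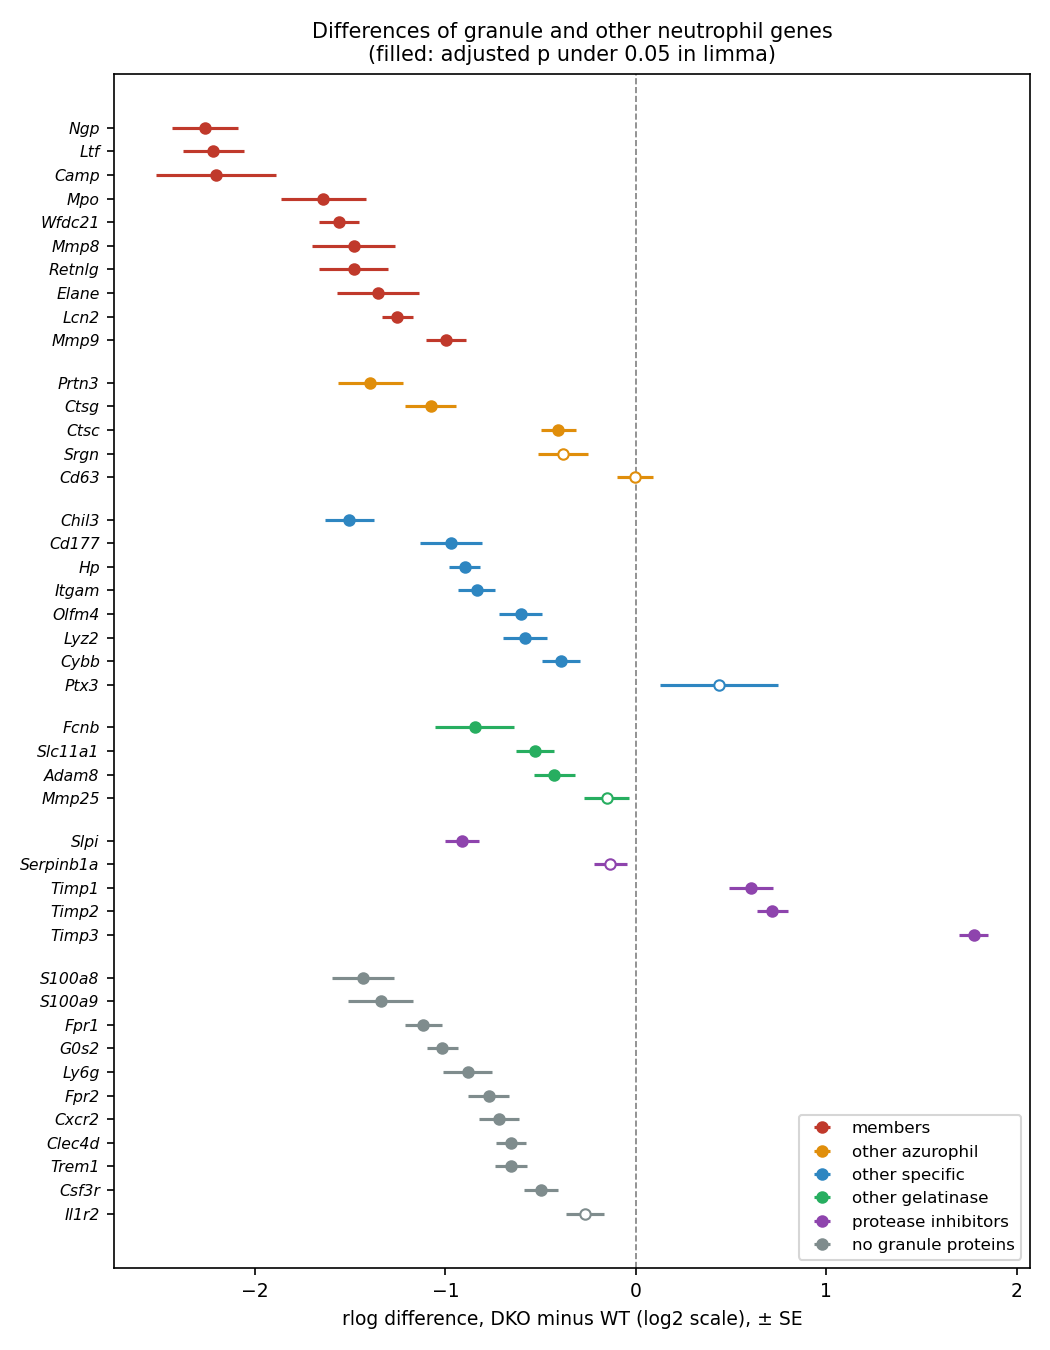
Difference of DKO minus WT in rlog (log2 scale) with its SE for the 10 granule genes (members), other granule genes, protease inhibitors and other neutrophil genes. The last are the neutrophil genes outside the granule class lists, labelled as no granule proteins. Filled points passed in limma at an adjusted p under 0.05. The 10 granule genes lie between -2.26 and -0.996, the other granule genes between -1.5 and 0.44, and Timp3 is at 1.77.

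Inhibitors of the granule proteases went both ways. Slpi, an inhibitor of elastase that epithelium and neutrophils make, had 10.83 and 11.03 rlog in the DKO samples and 11.87 and 11.82 in the WT samples, and fell by 0.91 (SE 0.089, adjusted p = 6.18e-05 in limma). Serpinb1a, an intracellular elastase inhibitor, was at -0.13 (adjusted p = 0.376). The inhibitors of matrix metalloproteinases were higher in DKO, Timp1 by 0.61, Timp2 by 0.72 and Timp3 by 1.77 (adjusted p = 0.00399, 0.000146 and 1.58e-06). Fibroblast markers moved with them, 6 of 6 called higher with a summed level of 15.35 to 15.63 in DKO and 14.61 to 14.66 in WT. Of 5 endothelial markers 5 were higher too, with a summed level of 12.11 to 12.19 in DKO and 11.15 to 11.34 in WT. The part of these cells in the rise of the inhibitors was not tested.

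Among receptors for granule proteins, Fpr2, a receptor for cathelicidin peptides on myeloid cells, fell by 0.77 (SE 0.11, adjusted p = 0.000527 in limma), and Lrp1, which takes up lactoferrin, was higher by 0.45 (SE 0.10, adjusted p = 0.00978). Lrp1 was at 0.31 (adjusted p = 0.161) without WT replicate 2. Slc22a17, a lipocalin 2 receptor, was at 0.38 (adjusted p = 0.0904, and 0.00475 without DKO replicate 2), and Lrp2 and Itln1 were below the filter. Of 9 transcription factors of granulocyte development 3 fell and 1 rose. Cebpb fell by 0.75 (SE 0.16), Spi1, which encodes PU.1, by 0.58 (SE 0.099) and Gfi1 by 0.32 (adjusted p = 0.0497), and Cebpd was higher by 0.58 (SE 0.095). Under the robust variance estimate Cebpb was not called (adjusted p = 0.135). Cebpe, the factor of specific granule formation, was low, with 4.28 and 4.50 rlog in the DKO samples and 4.61 and 5.11 in the WT samples. Its difference of -0.47 did not pass (adjusted p = 0.0786), but passed with quantile normalization of all 4 samples (-0.59, adjusted p = 0.0408), without WT replicate 1 (-0.71) or without DKO replicate 2 (-0.58). Gfi1 did not pass without WT replicate 1, WT replicate 2 or DKO replicate 1 (adjusted p = 0.21, 0.144 and 0.211), without the variance trend (0.0737) or with quantile normalization (0.0596). Cebpa, Runx1, Myb and Klf5 were at -0.057, -0.15, -0.013 and -0.30 and did not pass.

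Neutrophil genes outside the granule class lists fell too. Of 11 such markers 10 fell, with a median of -0.77, against -1.52 for the 10 granule genes, a contrast that was not tested. The ranges overlapped, with -1.43 to -0.26 for the markers and -2.26 to -0.996 for the granule genes. The part of other myeloid cells in the marker levels was not tested. Among the markers the calcium-binding protein genes S100a8 (-1.43) and S100a9 (-1.34) fell most. The formyl peptide receptor Fpr1 (-1.12), G0s2 (-1.02) and Ly6g (-0.88) followed. Cxcr2, the chemokine receptor of neutrophils, was at 8.63 and 8.34 rlog in the DKO samples and 9.23 and 9.17 in the WT samples (-0.72), and Csf3r, the receptor for G-CSF, fell by 0.50. The myeloid receptor genes Trem1 and Clec4d each fell by 0.65, and Fpr2 by 0.77. Il1r2 was at -0.26 (adjusted p = 0.108 in limma), and passed without DKO replicate 1 (-0.33). The mean rlog of the 11 markers was 10.56 and 10.41 in the DKO samples and 11.34 and 11.33 in the WT samples, a difference of -0.85.

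Set against that mean in each sample, all 10 granule genes were still lower in DKO, and 9 of them without overlap of the groups. Ngp was 1.15 and 0.53 below the marker mean in the DKO samples and 0.29 and 0.85 above it in the WT samples, a relative difference of -1.41. Ltf (-1.37) and Camp (-1.35) were close to Ngp. The relative differences of the others were -0.79 for Mpo, -0.71 for Wfdc21, -0.63 for Mmp8 and Retnlg, -0.51 for Elane, -0.40 for Lcn2 and -0.15 for Mmp9. Elane was the gene whose groups overlapped, with relative values of -5.61 and -4.66 in DKO and -4.80 and -4.47 in WT. The median of the 10 was -0.67, and it was -0.96 with the median of the markers in place of their mean. No test was made of these relative values. The share of all genes that lie lower on this scale was not computed, so the counts describe the 10 genes only.

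**Figure D4:**
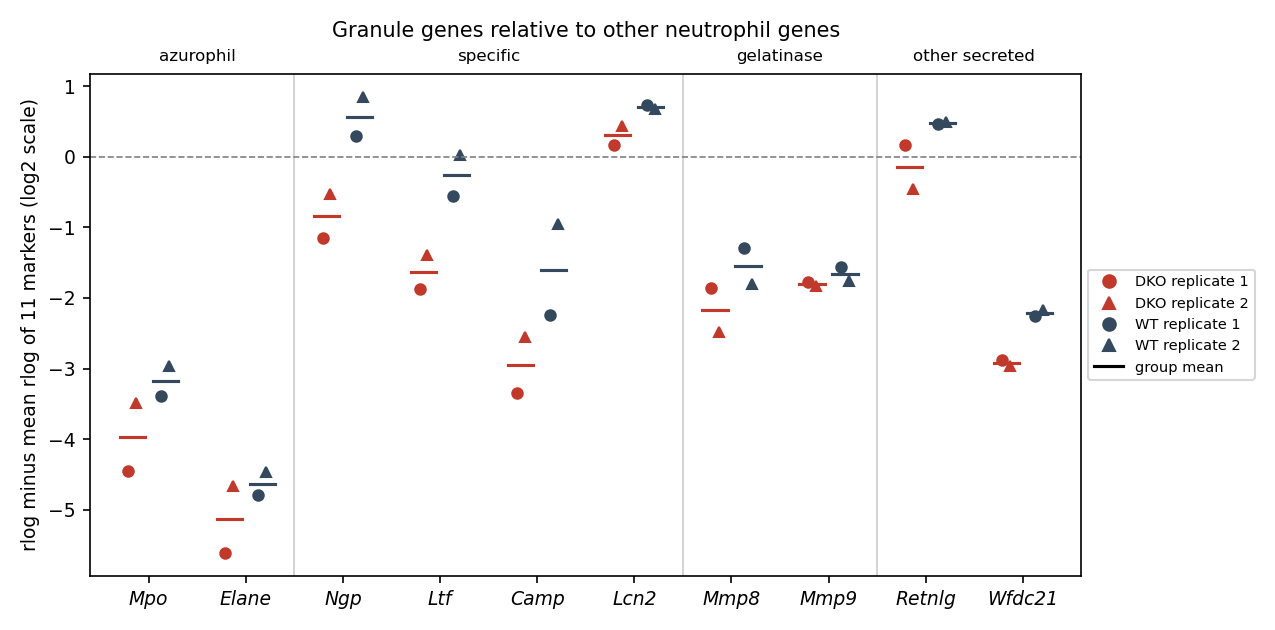
Values of the 10 granule genes relative to 11 other neutrophil genes (rlog minus the mean rlog of those genes in the same sample, log2 scale), with DKO in red left of WT in blue, symbols for replicates and bars for group means. Ngp is below 0 in both DKO samples (-1.15 and -0.53) and above 0 in both WT samples (0.29 and 0.85), and the groups of Mmp9 nearly touch.

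Markers of other cells can hold some of these transcripts. Of 5 monocyte markers Ly6c2 fell (-0.85), the list median was -0.37, and the summed level was 13.65 to 13.91 in DKO and 13.95 to 14.03 in WT. Of 9 macrophage markers 7 fell, with a median of -0.41 and a summed level of 14.18 to 14.40 in DKO and 14.72 to 14.75 in WT. Of 5 markers of myeloid progenitors, which transcribe Mpo and Elane, Ms4a3 fell (-1.06) and Cd34 and Kit were higher (1.05 and 0.71), genes that endothelium and mast cells also express. Of 6 eosinophil markers 3 were tested and 2 fell, Ccr3 (-0.76) and Alox15 (-0.59), while Siglecf was at -0.23 (adjusted p = 0.221 in limma). The summed level of the 3 was 7.12 to 7.22 in DKO and 7.52 to 8.08 in WT. Below the filter were Prg2 (3.17 to 3.43 rlog), Il5ra (0.64 to 0.75) and the defining granule gene Epx, which was below 0 in every sample. Of 6 T cell markers 0 were called in limma and 3 had an unadjusted p under 0.05, with a median of -0.19. The part of these cells in the falls of the granule genes was not tested.

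The genes with profiles most like the median of the 10 were found by the distance between centred rlog values over the 4 samples. Tnfrsf26 was nearest (distance 0.24, with 7.13 and 6.93 rlog in the DKO samples and 8.62 and 8.57 in the WT samples), followed by Chil3 (0.31), Stfa2l1 (0.40), Itgb2l (0.41), Asprv1 (0.41), Prtn3 (0.44), Ifitm6 (0.44), S100a8 (0.53), S100a9 (0.57) and Stfa2 (0.58). Among the 10 granule genes themselves the distance went from 0.23 for Wfdc21 to 1.08 for Camp. With 4 samples the distance is set mostly by the difference between the groups. Stfa2l1 and Stfa2 belong to a family of near-identical copies, so their reads may be split.

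Camp, Ngp and Ltf lie within 1195389 bases of chromosome 9 (109847379 to 111042767). Of the 15 other tested genes in that interval 1 was called, Pth1r (0.62 higher in DKO, adjusted p = 0.0103 in limma), and the lowest difference was that of Ccdc12 (-0.17, adjusted p = 0.203). The median difference of the 15 was 0.017. The gene next to Ngp, Klhl18, had 7.68 and 7.83 rlog in the DKO samples and 7.80 and 7.69 in the WT samples.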

How the data were processed

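Libraries of messenger RNA were stranded, per the labels' protocols. The deposited values are on a log2 scale, rlog as the table's name calls it, which is the regularized logarithm of DESeq2, a tool listed in the submitters' processing notes. The build listed there is GRCm38, and the other tools are STAR (2.5.4a), BWA (0.7.14-r1136), featureCounts of Subread (1.5.2), cutadapt (1.9.1) and bcl2fastq (2.17.1.14). Their parameters and the annotation release are not stated. Depth is unknown, so no counting interval is given, and tests of counts could not be made. Another 2 columns of the table fit no sample in the labels and were left out, though the authors' shrinkage may have drawn on them.

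Of 48526 identifiers 48058 were matched to symbols, with positions from GENCODE M21. The labelled treatment set the groups. Replicate numbers follow accession order and pair no samples. Separate animals are not mentioned, and the p-values then cover only the spread between these samples, which may be technical. The 13528 genes whose mean rlog was 4 or more were fitted with limma 3.58.1 in R 4.3.3 (group as the only term, empirical Bayes with a mean-variance trend, 8.9 prior and 2 residual degrees of freedom). Differences are DKO minus WT, p-values are two-sided and adjusted over all genes by Benjamini-Hochberg, and the threshold was 0.05. Tables and figures used Python 3.11.15, pandas 2.3.3 and matplotlib 3.10.9. The fit was also run on simulated data drawn from its own variance model, which cannot show how well it suits the deposited values. Alternatives changed the filter, the variance model, the scaling, the sample weights and the samples, and leaving samples out of the relative values was chosen after seeing the data. The genes and lists were chosen with earlier results of these data known. The text names the 10 genes, the counted genes of the granule, inhibitor, receptor, regulator and neutrophil lists, and the 10 nearest profiles among genes whose symbols are no predicted or clone names. Genes of other marker lists, and genes of the interval around Ngp, were named after their values were seen.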

Additional observations from a re-analysis of the deposited data

How the results depend on the processing

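All 10 granule genes were called lower with a minimum of 6, without the variance trend, with sample weights, median centring or quantile normalization. Their direction held in every run, but most runs could not change it. The filter, variance model and sample weights left each difference as it was, and median centring hardly moved it (Mpo from -1.64 to -1.65). Leaving out 1 sample cannot reverse groups that do not overlap. With quantile normalization the differences ran from -2.23 (Camp) to -0.98 (Mmp9). The count of 10 was 5 with a robust variance estimate, which gave an adjusted p of 0.129 for Mpo (-1.64), 0.0815 for Elane (-1.35), 0.231 for Camp (-2.20), 0.214 for Mmp8 (-1.48) and 0.126 for Retnlg (-1.48). It was 2 with no filter, where in addition Ngp (-2.26), Ltf (-2.22) and Mmp9 (-0.996) did not pass (adjusted p = 0.0603, 0.056 and 0.0616), and where the adjusted p was 0.119 for Mpo, 0.153 for Elane, 0.15 for Camp, 0.147 for Mmp8 and 0.107 for Retnlg. Over all genes 181 were then called higher and 25 lower, against 1342 and 656. The fit with no filter takes its prior variance from genes of very low value as well. With a minimum of 6, 878 were called higher, from fewer genes tested. Without each sample in turn the counts ranged from 1008 to 1660 higher and from 324 to 1222 lower. Differences without each sample ranged from -2.84 to -1.57 for Camp, from -1.76 to -0.95 for Elane and from -1.87 to -1.09 for Mmp8. Those fits take the spread of the lone sample from the other group, so passing in them is no firmer than passing with all 4 samples.

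With no filter 0 other azurophil and gelatinase genes, receptors and regulators were called in either direction, with 1 other specific granule gene and 1 neutrophil marker lower and 1 protease inhibitor higher and 0 lower. Without each sample in turn, 0 to 2 receptors were called higher (1 otherwise) and 0 to 1 other specific granule genes (0 otherwise). Differences that did not pass changed sign for Cd63 (0.072 with quantile normalization, and -0.11 to 0.10 without each sample), Ptx3 (-0.14 to 1.01), Mmp25 (-0.32 to 0.018) and Myb (-0.12 to 0.095). The median of the 10 genes relative to the neutrophil markers (-0.67) was -0.96 with the median of the markers, -0.79 without S100a8 and S100a9 and -0.85 to -0.64 without each sample. The cause of these changes was not tested. No paired analysis was possible because the labels give no replicate numbers. With 2 samples a group, and no counts, small differences of low genes such as Cebpe cannot be resolved.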
